A study of Mus musculus with 8 samples.

Results

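Transcription of 10 glucocorticoid-induced genes was followed in the fetal brain after prenatal stress (PS). The genes were *Tsc22d3*, *Sgk1*, *Dusp1*, *Errfi1*, *Mt1*, *Mt2*, *Klf9*, *Cebpd*, *Pdk4* and *Klf15*, chosen by name as genes that glucocorticoids raise in many tissues, and all 10 were found among the 54752 genes listed in the count tables. Each passed the filter on low counts, with 17865 genes tested in all. None of the 10 was called different between stressed and control brains by edgeR, and 2 of them, *Mt1* and *Klf9*, had an unadjusted p-value under 0.05, as 26.9% of all genes tested did.

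RNA was sequenced from the brains of 8 wild type fetuses at E15.5, 1 library per brain, from C57BL/6Slac mice that the labels give as C57BL/6. The labels name the tissue only as brain, the study's methods as the whole brain and its sample sheet as half_whole_brain, so that how much of each brain was taken is not certain. Dams of the stress group had chronic unpredictable mild stress (tube restraint, predator odour, wet bedding, light at night) until the day before collection, and dams of the control group were left undisturbed. The control brains were females F36 and F37 and males M30 and M31, and the stressed brains were females F34 and F35 and males M28 and M29. Brains within a group were littermates and the groups had different dams, so that litter and stress cannot be told apart and every error given here is a spread among littermates. The totals were between 25320109 and 29105710 counts per library.

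Glucocorticoids cross the cell membrane and bind the glucocorticoid receptor, a transcription factor that then enters the nucleus and binds palindromic glucocorticoid response elements near its target genes. Its fast targets include feedback inhibitors of kinase signalling, transcription factors of the Krüppel-like and C/EBP families, metal-binding proteins and enzymes that shift fuel use. These genes are used as a readout of hormone action, although most of them also respond to other signals, among them metals, growth factors, cyclic AMP and fasting.

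The letters of such elements were looked for in the 250 bases before each annotated transcript start in RefSeq (GRCm38.p6), which has 17 start windows for 9 of the 10 genes and none for *Cebpd*. The receptor's core site was searched as TGTTCT, and the full glucocorticoid response element as AGAACA followed by any 3 bases and TGTTCT, both on either strand, so that the core site lies within the full element. The full element was found in 1 of the 17 windows, at an inner start of *Sgk1* (chr10:21993640-21993889, plus strand), and in 3 of 32851 windows of all genes (0.00913%). The core site was found in 4 of the 17 windows, against 16.1% of all windows. These windows belong only to *Sgk1*, which has 6 of the 17, and to *Tsc22d3*. That *Sgk1* window is shown because it alone holds the receptor's palindrome, with the full element and a further core site in capitals.

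*Sgk1*: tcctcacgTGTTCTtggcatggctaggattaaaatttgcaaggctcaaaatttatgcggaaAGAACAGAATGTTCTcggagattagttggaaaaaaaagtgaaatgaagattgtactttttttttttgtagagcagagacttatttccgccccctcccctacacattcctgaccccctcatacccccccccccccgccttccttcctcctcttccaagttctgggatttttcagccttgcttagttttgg

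Other signals that reach these genes have their own letters. The cyclic AMP response element was searched as TGACGTCA and was found in 2 of the 17 windows, those of *Dusp1* and of 1 start of *Errfi1*, against 1.55% of all windows. The core of the metal response element was searched on both strands in a G form, TGCGCNC, and an A form, TGCACNC. The G form was found in 2 of the 17 windows, those of *Mt2* and *Klf15*, against 12.5% of all. The A form was found in 2 of the 17, those of *Mt1* and *Mt2*, against 10.4%. Bases after an annotated start were not searched, so that any core there was missed. The windows of *Dusp1* (chr17:26508473-26508722, minus strand), *Mt1* (chr8:94178839-94179088, plus strand) and *Mt2* (chr8:94172368-94172617, plus strand) are shown because they carry letters of these other inputs, with the cyclic AMP element in capitals for *Dusp1* and the metal response cores in capitals for the metallothioneins. The match of letters is a description and says nothing of what binds there in these brains.
*Dusp1*: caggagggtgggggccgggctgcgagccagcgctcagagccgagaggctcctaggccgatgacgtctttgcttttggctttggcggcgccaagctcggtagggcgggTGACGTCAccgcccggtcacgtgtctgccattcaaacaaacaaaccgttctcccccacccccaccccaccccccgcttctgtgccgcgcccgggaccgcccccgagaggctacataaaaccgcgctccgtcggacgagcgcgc
*Mt1*: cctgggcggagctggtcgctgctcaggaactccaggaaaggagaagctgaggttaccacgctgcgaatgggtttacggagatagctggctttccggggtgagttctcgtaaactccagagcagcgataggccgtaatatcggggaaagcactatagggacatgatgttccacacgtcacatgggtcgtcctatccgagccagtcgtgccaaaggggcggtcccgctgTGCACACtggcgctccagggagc
*Mt2*: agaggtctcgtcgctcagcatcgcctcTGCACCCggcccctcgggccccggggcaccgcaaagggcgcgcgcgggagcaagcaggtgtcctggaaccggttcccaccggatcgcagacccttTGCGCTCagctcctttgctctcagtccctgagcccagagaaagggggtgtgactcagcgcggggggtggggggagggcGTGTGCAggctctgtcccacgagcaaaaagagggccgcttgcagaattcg

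Expression is given as CPM, the usual rescaling of a gene's counts to a common library size, on totals scaled by edgeR's TMM method, and levels of different genes are compared only as CPM per kilobase of annotated exon. In the control brains *Dusp1* was highest at 11.3 ± 0.35 CPM per kilobase (SD, n = 4), above 73.2% of all genes tested, and *Tsc22d3* followed at 9.45 ± 0.34 (SD, n = 4). *Errfi1* at 6.40, *Mt1* at 5.84 and *Sgk1* at 5.76 CPM per kilobase formed a middle group, in which neighbours overlapped between brains. Below them, *Klf15* had 2.77, *Mt2* 1.66 and *Klf9* 0.961 CPM per kilobase, each clear of its neighbours in all 4 control brains. *Cebpd* at 0.455 and *Pdk4* at 0.436 CPM per kilobase were lowest, overlapped each other, and lay above only 14.9% and 14.3% of the genes tested. The value of *Mt2* covers only a part of the gene, because exons of the antisense gene *Gm45774* share 73.5% of its exon bases and the counter by default leaves out read pairs that touch exons of both genes. Annotated exons fill the whole span of *Mt1* (1246 bases) and of *Cebpd* (3746 bases). Their levels per kilobase rest on that full length and would be too low if the RNA were shorter.

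The comparison of stress with control asks whether a chronically stressed dam leaves a mark on these genes in the fetus. With the call set at an adjusted p-value below 0.05 (edgeR's quasi-likelihood F test, with a term for sex), 0 of the 10 rose and 0 fell with stress, where 13.8% of all genes tested were called, 6.49% higher and 7.27% lower. At an unadjusted p-value under 0.05 the test had 2 of the 10, *Mt1* and *Klf9*, beside 26.9% of all genes tested. Both had lower means in the stress group. DESeq2's Wald test had 0 of the 10 before adjustment and 0 after it, against 20% and 9.29% of all genes. The groups overlapped for each of the 10 genes. They did not overlap for 16.4% of all genes tested, 8.2% with stress higher and 8.22% with stress lower. With only 10 genes, these counts cannot show that the set differs from all genes tested. The median log2 fold change (Log2FC, stress vs. control) of the 10 was -0.039, and that of all genes tested was 0.0015. Exact permutation of the 8 brains gave no p-value under 0.05 for any of the 10 (two-sided, smallest possible 0.0286).

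**Figure D1:**
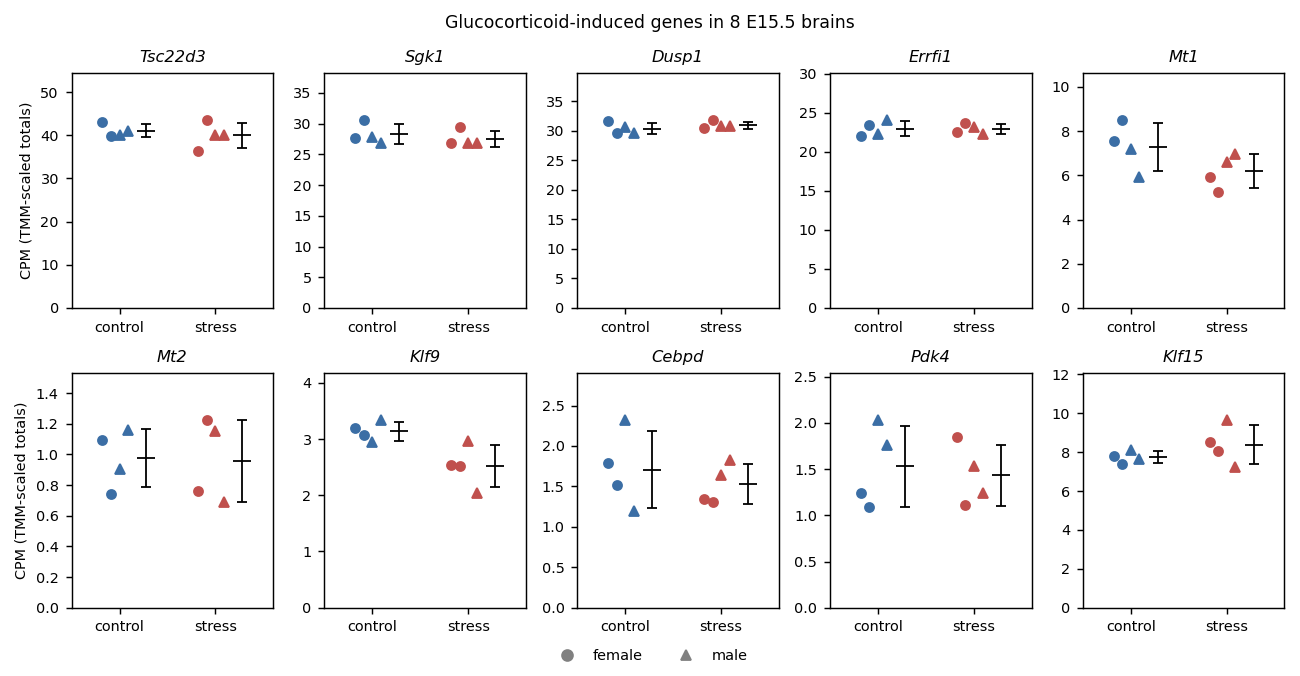
CPM of each of the 10 genes in each brain, with 1 panel per gene and a y axis that starts at 0. Circles are females, triangles males, and the bar beside each group is its mean ± SD (n = 4), and the control and stress points overlap in every panel, most narrowly for *Klf9*, where 3 of the stressed brains lie below all 4 control brains.

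The kinase and the signalling inhibitors of the group had the smallest spread within groups on the log2 scale, at 601 to 890 counts per brain. Relative to counting error this order did not hold, as given below. *Dusp1*, a phosphatase that switches off MAP kinases (chromosome 17, 26505590 to 26508519, minus strand, mm10), had 31.6, 29.6, 30.6 and 29.7 CPM in control F36, F37, M30 and M31 and 30.5, 31.8, 30.8 and 30.7 CPM in stress F34, F35, M28 and M29. The groups lay on top of each other, and the spread within groups (SD 0.037 on the log2 scale) was below the 0.049 that counting error alone gives at 805 to 890 counts. Its Log2FC was 0.027 (SE 0.042, adjusted p = 0.744), with a 95% interval of 0.959 to 1.08 in fold.

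*Errfi1* encodes a feedback inhibitor of the EGF receptor (chromosome 4, 150853919 to 150868892, plus strand). It had 22.0, 23.4, 22.3 and 24.0 CPM in the control brains in the same order and 22.5, 23.7, 23.2 and 22.2 CPM in the stressed brains. Its group means were both 22.9 CPM, the closest of the 10 as a ratio. The Log2FC was -0.0033 (SE 0.048, adjusted p = 0.978), and the 95% interval ran from 0.931 to 1.07 in fold.

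*Sgk1*, a serum- and glucocorticoid-regulated kinase that controls ion channels and transporters (chromosome 10, 21882184 to 21999903, plus strand), is the gene whose inner start carries the palindrome shown above. It had 27.7, 30.6, 27.9 and 26.8 CPM in the control brains and 26.8, 29.4, 26.9 and 26.9 CPM in the stressed brains. The highest brain was a female in each group, control F37 and stress F35. The Log2FC was -0.040 (SE 0.046, adjusted p = 0.640) and the 95% interval 0.910 to 1.04 in fold.

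Among the transcriptional regulators, *Tsc22d3* encodes GILZ, a leucine zipper protein that restrains inflammatory transcription factors, and it is the only gene of the 10 on the X chromosome (140539528 to 140600659, minus strand). It had 43.1, 39.7, 40.2 and 41.1 CPM in the control brains and 36.4, 43.5, 40.0 and 40.0 CPM in the stressed brains. The lowest and the highest of the 8 were both stressed females, F34 and F35. The Log2FC was -0.038 (SE 0.046, adjusted p = 0.658), with a 95% interval of 0.911 to 1.04 in fold.

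*Klf9*, a Krüppel-like factor that thyroid hormone also induces in the developing brain (chromosome 19, 23141226 to 23166911, plus strand), stood nearest to a call. It had 3.20, 3.07, 2.94 and 3.34 CPM in the control brains and 2.53, 2.53, 2.96 and 2.04 CPM in the stressed brains. Of the stressed brains, F34, F35 and M29 lay below all 4 control brains and M28 lay just above the lowest control, M30. The Log2FC was -0.32 (SE 0.13, adjusted p = 0.103, exact permutation p = 0.0571), with a 95% interval of 0.667 to 0.963 in fold. The gene rested on 59 to 95 counts per brain, where counting error alone gives an SD of 0.16 on the log2 scale and the measured SD within groups was 0.17. Without stress M28 the adjusted p was 0.0442 and the Log2FC -0.43, and without stress M29 they were 0.360 and -0.21.

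*Klf15* is a Krüppel-like factor of amino acid and glucose metabolism (chromosome 6, 90462576 to 90475238, plus strand). It had 7.83, 7.37, 8.13 and 7.63 CPM in the control brains and 8.55, 8.06, 9.65 and 7.25 CPM in the stressed brains. Stress M28 was the highest and stress M29 the lowest of all 8, with the controls between them. The Log2FC was 0.12 (SE 0.085, adjusted p = 0.424), with a 95% interval of 0.959 to 1.22 in fold, the only value above 0 apart from that of *Dusp1*.

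*Cebpd*, a C/EBP factor of the acute phase response and fat cell differentiation (chromosome 16, 15887286 to 15891031, plus strand), had 1.78, 1.52, 2.32 and 1.20 CPM in the control brains and 1.34, 1.30, 1.64 and 1.83 CPM in the stressed brains. The control brains M30 and M31 were the highest and the lowest of the 8. The Log2FC was -0.15 (SE 0.18, adjusted p = 0.652), and the 95% interval of 0.692 to 1.17 in fold is wide at 33 to 64 counts per brain. Exons of *Spidr*, on the opposite strand, cover 15.0% of its exon bases.

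*Pdk4* encodes the pyruvate dehydrogenase kinase that spares glucose in fasting (chromosome 6, 5483351 to 5496309, minus strand). It had 1.24, 1.09, 2.03 and 1.76 CPM in the control brains and 1.85, 1.11, 1.53 and 1.24 CPM in the stressed brains. In the control litter the males were above the females, and in the stressed litter no such order was seen. Over all 8 brains the Log2FC was -0.084 (SE 0.19, adjusted p = 0.835), with a 95% interval of 0.716 to 1.24 in fold.

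The metallothioneins are small cysteine-rich proteins that bind zinc and copper, and their genes lie side by side on chromosome 8. *Mt1* (94179082 to 94180327, plus strand) had 7.54, 8.50, 7.18 and 5.91 CPM in the control brains and 5.94, 5.25, 6.59 and 6.98 CPM in the stressed brains. Both stressed females lay below both control females, while the males overlapped. The Log2FC was -0.23 (SE 0.10, adjusted p = 0.157, exact permutation p = 0.171), and the 95% interval was 0.736 to 0.991 in fold. Without control M31 the adjusted p was 0.0293 and the Log2FC -0.34, while without control F37 or stress F35 the Log2FC was -0.14 (adjusted p = 0.498 and 0.446).

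*Mt2* (94172664 to 94173568, plus strand) had 1.09, 0.740, 0.907 and 1.16 CPM in the control brains and 0.760, 1.22, 1.15 and 0.691 CPM in the stressed brains. Control F37 was the highest of the 8 for *Mt1* and among the lowest for *Mt2*. For *Mt2* counting error alone gives an SD of 0.28 on the log2 scale, against 0.36 measured within groups. Pearson's r of log2 CPM between *Mt1* and *Mt2* was -0.49 over the 8 brains and -0.82 within sex and group, with no test. Whether *Mt2* follows *Mt1* from brain to brain cannot be told at these counts. The Log2FC of *Mt2* was -0.036 (SE 0.23, adjusted p = 0.944), from only 20 to 33 counts per brain, and the 95% interval of 0.705 to 1.35 in fold was the widest of the 10. A comparison of the metallothionein proteins was not made here.

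**Figure D2:**
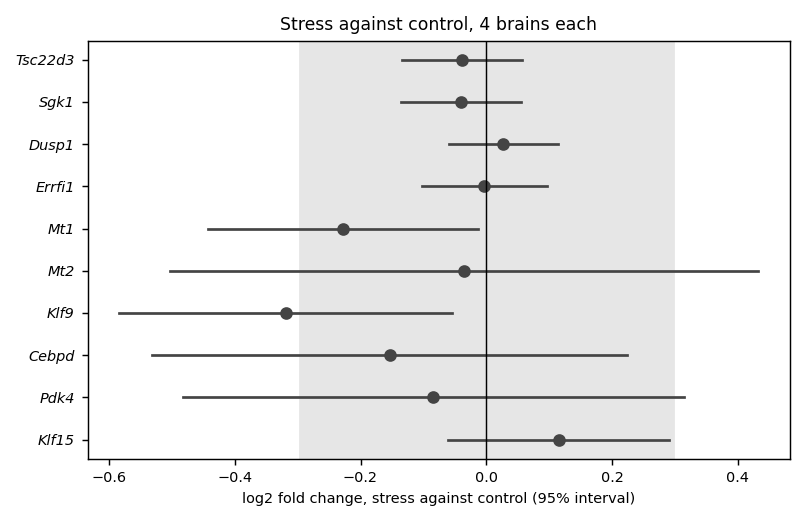
Log2FC (stress vs. control) of the 10 genes on the x axis, with points for the estimates of edgeR's fit over 8 brains and lines for their 95% intervals. The grey band holds the Log2FC of the middle 90% of all genes tested, from -0.30 to 0.30, and the interval leaves out 0 for *Mt1* and *Klf9* before any adjustment.

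The spread within groups set how small a difference could be seen between these litters. On the log2 scale it was 0.037 to 0.083 (SD) for *Dusp1*, *Errfi1*, *Sgk1* and *Tsc22d3*. The 95% intervals of these 4 genes lay within 0.910 to 1.08 in fold. All intervals here hold only the spread among littermates, so they set no bound on an effect of stress apart from litter. For *Klf15*, *Klf9* and *Mt1* the SD was 0.13 to 0.20, and for *Cebpd*, *Mt2* and *Pdk4* it was 0.33 to 0.38, and the 95% intervals of these last 3 reached down to 0.692 and up to 1.35 in fold, so that a change within those bounds could not be told from the spread between brains. Relative to counting error alone, the spread was 0.75 times as large for *Dusp1*, 0.90 times for *Errfi1*, 1.01 times for *Klf9* and 1.42 times for *Sgk1*. It was 1.87 times as large for *Mt1* and 1.93 times for *Tsc22d3*.

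The sex of the fetus was read in the same fit, since *Tsc22d3* is X-linked. No gene of the 10 was called for sex, and 0.0896% of all genes tested were. The difference of males from females was -0.012 (SE 0.046) for *Tsc22d3* on the log2 scale and largest for *Pdk4*, at 0.31 (SE 0.19, adjusted p = 0.882). A sex by stress interaction was then fitted over all 8 brains, and it was called for 0 of the 10 genes and 0.0056% of all genes tested. At an unadjusted p-value under 0.05 it had 2 of the 10, *Mt1* and *Pdk4*, in edgeR's test, against 6.31% of all genes, and *Mt1* alone in DESeq2's, against 2.43%.

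For *Mt1* the Log2FC was -0.52 (SE 0.13) in females and 0.053 (SE 0.13) in males. The difference of males from females was 0.57 (SE 0.18, unadjusted p = 0.00409, adjusted p = 0.510, edgeR). *Pdk4* had the opposite arrangement, with 0.35 (SE 0.27) in females and -0.45 (SE 0.24) in males, a difference of -0.80 (SE 0.36, unadjusted p = 0.0369, adjusted p = 0.764). Neither gene passed the adjustment over all genes, and within a sex only 2 brains stand against 2. The Log2FC of *Klf9* was -0.31 (SE 0.19) in females and -0.33 (SE 0.18) in males.

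**Figure D3:**
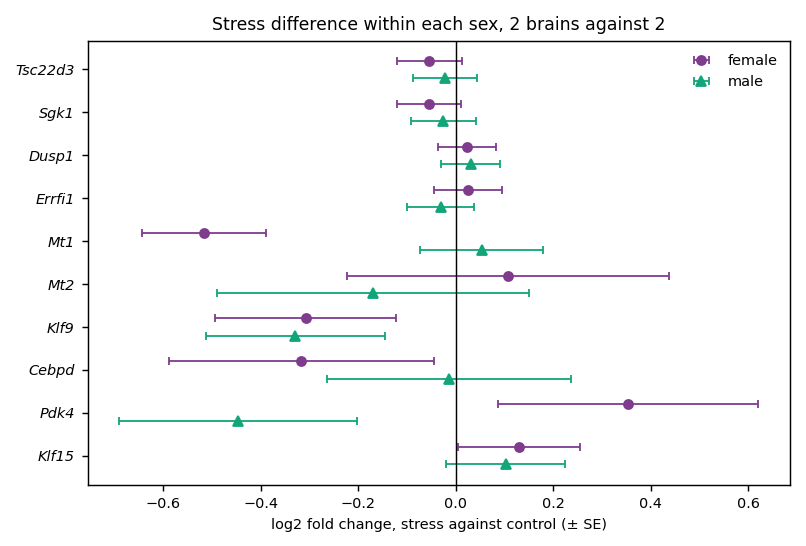
Log2FC (stress vs. control) of the 10 genes within females (circles) and within males (triangles), 2 brains against 2, with bars of ± 1 SE from a joint fit of the 8 brains. The sexes lie apart by more than their bars for *Mt1*, at -0.52 and 0.053, and for *Pdk4*, at 0.35 and -0.45, and neither difference passed adjustment over all genes.

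Further glucocorticoid-induced genes gave a second reading. Of 20 such genes 16 were tested, 3 were lower in the stress group, 0 were higher and 13 were not called, with a median Log2FC of -0.11. Among all genes tested, 7.27% were called lower and 6.49% higher. *Fkbp5*, the receptor co-chaperone that closes a short feedback loop on the hormone, had 64.9, 65.9, 62.1 and 65.4 CPM in the control brains and 65.2, 64.1, 63.1 and 63.9 CPM in the stressed brains. Its Log2FC was -0.012 (SE 0.033, adjusted p = 0.869). *Per1*, a clock gene with a well-known response element, had a Log2FC of -0.048 (SE 0.047, adjusted p = 0.565), and *Ddit4*, an inhibitor of mTOR signalling, -0.040 (SE 0.032, adjusted p = 0.463).

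The 3 genes that fell were *Bcl6*, *Cdkn1a* and *Nfkbia*, and each is also known as a target of other pathways. *Bcl6*, a transcriptional repressor that promotes neurogenesis, fell from 10.2, 11.8, 10.2 and 11.9 CPM in the control brains to 8.15, 7.90, 8.26 and 6.56 CPM in the stressed brains. The groups were apart, with a Log2FC of -0.52 (SE 0.082, adjusted p = 0.000138). *Cdkn1a*, the p21 inhibitor of cell division and a p53 target, fell from 28.3, 27.0, 25.9 and 29.8 CPM to 22.0, 23.0, 22.0 and 20.7 CPM, with a Log2FC of -0.34 (SE 0.051, adjusted p = 5.86e-05). *Nfkbia*, the inhibitor of NF-kB, fell from 18.2 ± 0.62 to 16.3 ± 0.72 CPM (SD, n = 4 each), with a Log2FC of -0.16 (SE 0.052, adjusted p = 0.0442). The call of *Nfkbia* was lost in each of the 8 fits that left out 1 brain, with an adjusted p-value of up to 0.107, in DESeq2's test, at 0.155, without the filter, at 0.0840, and without the sex term, at 0.0678. *Bcl6* and *Cdkn1a* were called in all 8 of those fits. The other 4 genes of the list, *Tat*, *Pck1*, *Lcn2* and *Gjb6*, were too low to be tested.

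The receptors themselves and their coactivators are described briefly. Of 6 genes 5 were tested and 3 were lower in the stress group, where 7.27% of all genes tested were called lower. *Nr3c1*, the glucocorticoid receptor, had 15.8, 15.3, 16.9 and 16.0 CPM in the control brains and 13.1, 14.2, 14.2 and 13.8 CPM in the stressed brains, and the groups were apart (Log2FC -0.21, SE 0.057, adjusted p = 0.0143). *Nr3c2*, the mineralocorticoid receptor, had a Log2FC of -0.37 (SE 0.11, adjusted p = 0.0211), and the coactivator *Ncoa1* one of -0.14 (SE 0.030, adjusted p = 0.00284). By DESeq2's test the adjusted p-values of *Nr3c1* and *Nr3c2* were 0.0555 and 0.0955, so that *Ncoa1* alone was called there. *Nr3c1* was called in 6 and *Nr3c2* in 5 of the 8 fits without 1 brain, lost for *Nr3c1* without control M30 (adjusted p = 0.0578) or stress M29 (0.0555) and for *Nr3c2* without control M31 (0.0965), stress F35 (0.0551) or stress M28 (0.0704). *Hsd11b2*, the enzyme that inactivates corticosterone, had 66 to 115 counts per brain and a Log2FC of -0.070 (SE 0.12, adjusted p = 0.768).

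**Figure D4:**
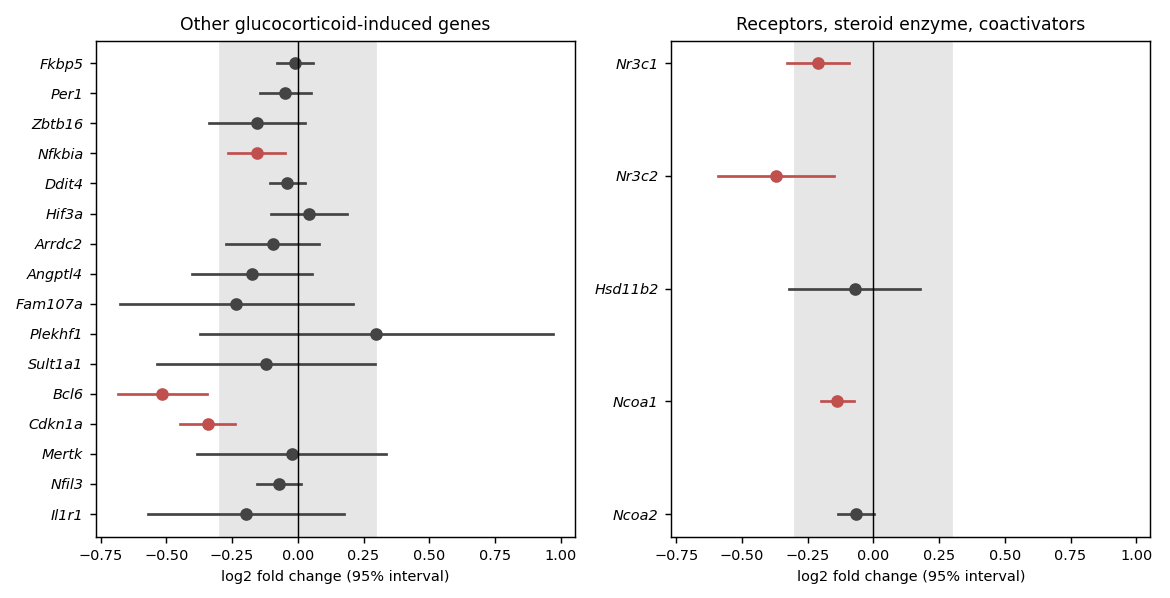
Log2FC (stress vs. control) with 95% intervals for 16 further glucocorticoid-induced genes (left) and for receptors, a steroid enzyme and coactivators (right), from edgeR's fit over 8 brains. Red marks an adjusted p-value under 0.05 and the grey band the middle 90% of all genes tested, and all 6 red genes lie below 0.

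Relatives of the 10 genes were read in the same way. Of 23 paralogues 21 were tested, 1 was higher and 2 were lower, where 13.8% of all genes were called, and the median Log2FC was -0.040. *Dusp4*, a nuclear MAP kinase phosphatase, rose from 107.7, 112, 105 and 106 CPM in the control brains to 121, 113, 113 and 118 CPM in the stressed brains (Log2FC 0.11, SE 0.031, adjusted p = 0.0142). *Pdk1*, a paralogue of *Pdk4* that hypoxia induces, fell from 36.3, 39.6, 40.9 and 40.3 CPM to 33.2, 33.2, 34.5 and 32.1 CPM (Log2FC -0.24, SE 0.043, adjusted p = 0.000400), and *Tsc22d2* fell with a Log2FC of -0.12 (SE 0.034, adjusted p = 0.0168). Whether a relative differed from its member gene in response was not tested.

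*Mt3*, the brain metallothionein, had a Log2FC of -0.076 (SE 0.050, adjusted p = 0.354), and *Mt4* had 0 counts in every library, which allows up to 0.103 to 0.119 CPM (3 counts of the total, for counting error only). *Klf4* and *Klf2* had Log2FC values of -0.34 (SE 0.11, adjusted p = 0.0505) and -0.30 (SE 0.11, adjusted p = 0.0718). Of 6 genes of metal handling, with a median Log2FC of 0.024, 1 was higher in the stress group, the manganese exporter *Slc30a10* (Log2FC 0.16, SE 0.041, adjusted p = 0.00839). The share called higher over all genes tested was 6.49%. *Mtf1*, the factor that binds the metal response element, had a Log2FC of 0.069 (SE 0.052, adjusted p = 0.437).

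Because *Dusp1* is also an immediate early gene, 11 genes of that class were read beside it, of which 10 were tested, with a median Log2FC of -0.059. *Btg2*, an antiproliferative factor, was higher (Log2FC 0.18, SE 0.044, adjusted p = 0.00692) and *Junb*, an AP-1 subunit, lower (Log2FC -0.39, SE 0.13, adjusted p = 0.0415) in the stress group. Over all genes tested, 6.49% were called higher and 7.27% lower. The other 8 were not called, among them *Fos* at 17 to 29 counts per brain and *Egr1* with a Log2FC of -0.17 (SE 0.12, adjusted p = 0.416).

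Markers of the cells in the tissue were read in the same fit, since in RNA of the brain fewer cells of a type and less RNA per cell cannot be told apart. The counts below stand beside 6.49% of all genes tested called higher and 7.27% called lower. Brain identity was plain, with summed neuron markers of 6933 to 7188 CPM in the control and 6771 to 7104 CPM in the stress group, of which 4 of 7 were lower (*Snap25*, *Syt1*, *Stmn2* and *Gap43*, Log2FC -0.13 to -0.086). All 4 markers of cycling cells, *Mki67*, *Top2a*, *Ccnb1* and *Cdk1*, were higher in the stress group (Log2FC 0.21 to 0.26, sums of 376.5 to 410 CPM in control and 430.5 to 497 CPM in stress), as were 4 of 7 of radial glia, *Sox2*, *Pax6*, *Vim* and *Nes* (Log2FC 0.12 to 0.14, sums of 1518 to 1609 and 1549 to 1676 CPM). Of the markers of endothelial cells 3 of 5 were lower (136 to 151 and 120 to 129 CPM), *Flt1* (Log2FC -0.41), *Kdr* (-0.29) and *Cldn5* (-0.13), and of astroglia 2 of the 4 tested, *Aqp4* (-0.61) and *Gfap* (-0.76) (212 to 225 and 203 to 219 CPM). The value of *Gfap* (SE 0.22) rested on only 14 to 40 counts per brain. Markers of meninges and fibroblasts summed to 11.4 to 20.6 CPM in control and 14.7 to 42.7 CPM in stress, with 2 of the 4 tested higher, *Col1a1* (Log2FC 1.59, SE 0.39) and *Col1a2* (0.79, SE 0.21), and those of choroid plexus to 2.68 to 11.2 and 3.14 to 33.4 CPM, with 1 of 5 higher, *Ttr* (Log2FC 1.91, SE 0.47). The groups overlapped for *Col1a1*, *Col1a2* and *Ttr*, and brains differed widely. In the stress group *Ttr* had 10.6 ± 13.2 CPM and *Col1a1* 5.16 ± 4.53 CPM (SD, n = 4), and counts per brain over both groups were 16 to 827 and 24 to 336. Of the ependymal markers *Dnah12* was lower (Log2FC -1.23, SE 0.32, only 6 to 18 counts per brain), *Foxj1* was not called and *Tmem212* had at most 1 count, while *Hbb-y* was the 1 of 4 red cell markers that was higher (Log2FC 0.84). None of the 4 pericyte and 5 microglia markers was called. Markers not called had Log2FC of -0.097 to -0.016 for the 3 of radial glia and -0.041 to 0.056 for the 3 of neurons. Those of choroid plexus, 4 markers, had -0.37 to 0.30, and the 2 of meninges and fibroblasts had -0.10 to 0.39. The part of these cell types in the values of *Klf9*, *Mt1* and the genes called above was not tested.

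For each gene the pattern over the 8 brains was compared with that of 11961 genes of at least 5 CPM by Pearson's r of log2 CPM, as a description with no test. The r of the closest gene ran from 0.937 for *Cebpd* to 0.989 for *Dusp1*, the highest of 11961 values in each case, and all points share the same litters and libraries.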

How the data were processed

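The authors trimmed paired reads with Trim Galore, aligned them with TopHat2 2.1.1 (mm10), and summed read pairs over the exons of each GENCODE gene in featureCounts 1.6.3. The deposited values are unnormalized counts, and per the file headers no option was set for strand, overlapping genes or reads with several places. Counts of a gene with an antisense partner are therefore uncertain. Gene symbols were matched for 54723 of 54752 identifiers.

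Genes passing filterByExpr (minimum count 10, by group) entered edgeR 4.0.16 with TMM factors, glmQLFit and glmQLFTest (limma 3.58.1, R 4.3.3), with sex and condition in the model and Benjamini-Hochberg adjustment over all genes tested. The study's batch term was left out because the labels name no batch. The SE is the size of the Log2FC divided by the root of F. Single genes were also compared by exact permutation of log2 CPM (prior count 2). The alternatives were DESeq2 1.42.0, other size factors, no filter, no sex term and each brain left out in turn, and the fits were tested on simulated data. Intervals cover counting error and the spread among these brains.

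The 10 genes and all lists were chosen with earlier results of these data known. The named genes were all 10, every gene of a list that was called (up to 4 per direction), and *Fkbp5*, *Per1*, *Ddit4*, *Hsd11b2*, *Mt3*, *Mt4*, *Klf2*, *Klf4*, *Mtf1*, *Fos*, *Egr1*, *Foxj1* and the untested *Tat*, *Pck1*, *Lcn2*, *Gjb6* and *Tmem212*, picked after their values were seen.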

Additional observations from a re-analysis of the deposited data

Results flagged for a closer look

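Over 20 groups of 4 brains (10 genes, 2 groups each), 1 brain stood apart from the rest of its group by Dixon's test at the 95% level, where chance gives about 1 in 20. It was stress F35 for *Sgk1*, at 29.43 CPM against 26.8 to 26.9 CPM in the other stressed brains, a gap of 0.97 of the range of the group. This brain lay within the range of the control brains. No interaction of sex and stress passed adjustment for any of the 10 genes.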

How the results depend on the processing

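No gene of the 10 was called under DESeq2's test, DESeq2's size factors, upper-quartile normalization, no filter or no sex term. With 1 brain left out in turn 0 to 1 were called lower, *Mt1* without control M31 and *Klf9* without stress M28. In those fits the Log2FC ranged from -0.34 to -0.14 for *Mt1*, -0.43 to -0.21 for *Klf9*, -0.066 to -0.0084 for *Sgk1*, 0.0086 to 0.045 for *Dusp1* and 0.030 to 0.20 for *Klf15*. It changed sign in at least 1 of them for *Tsc22d3* (-0.088 to 0.014), *Errfi1* (-0.027 to 0.025), *Mt2* (-0.21 to 0.13), *Cebpd* (-0.36 to 0.022) and *Pdk4* (-0.33 to 0.055), so that no direction is given for these 5.

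Among all genes, 1160 were called higher and 1298 lower, against 748 and 911 with DESeq2 and 736 to 1057 and 854 to 1308 with 1 brain left out, the lowest without stress M29. Of the receptor genes 3 were lower, and 1 with DESeq2. Without the filter 1 further glucocorticoid-induced gene, *Gjb6*, was called higher. The causes of these shifts were not tested. Counts under 100 per brain limited 4 of the 10 genes (*Mt2*, *Klf9*, *Cebpd*, *Pdk4*). No paired analysis was possible because the groups share no replicate numbers.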

Other observations

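*Gjb6*, a connexin gene from the list of further glucocorticoid-induced genes, was too low for the test with the filter. It had 3, 1, 0 and 3 counts in control F36, F37, M30 and M31 and 7, 10, 14 and 9 counts in stress F34, F35, M28 and M29, so that the groups did not overlap. With no filter on low counts edgeR gave a Log2FC of 2.44 (SE 0.53, adjusted p = 0.000184). The gene was chosen after its values were seen.

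Stress F35, the library with the lowest total, was the highest stressed brain for 5 of the 10 genes (*Tsc22d3*, *Sgk1*, *Dusp1*, *Errfi1*, *Mt2*) and the lowest for 3 (*Mt1*, *Cebpd*, *Pdk4*). Control F37 was the lowest control brain for 5 (*Tsc22d3*, *Dusp1*, *Mt2*, *Pdk4*, *Klf15*) and the highest for 2 (*Sgk1*, *Mt1*).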
